A study of Mus musculus with 6 samples.

Results

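The genes described here are 34 markers and regulators of macrophages and other myeloid cells, taken by symbol from the count tables of a mouse kidney RNA-seq study. All 34 were found among 54146 genes with a count line. The list was drawn up by name, from the growth factors and receptor that keep macrophages alive, the lineage factor PU.1, general leukocyte and myeloid genes, and markers of resident, scavenging and lipid-associated macrophages. It was chosen with earlier results of these data known, so its shares beside those of all genes are descriptive only. The study compared whole kidneys of B6C3F1/J mice aged 12 weeks (postnatal day 84), in 3 KspCre Tfam f/f-labelled libraries and 3 labelled Tfam f/f. Both labels name loxP-flanked Tfam alleles, and the first label adds Cre under the Ksp-cadherin promoter, which is active in tubule epithelium. The labels do not say that the 3 libraries of a label came from 3 animals. Tfam encodes a factor that coats the DNA of mitochondria and is needed to transcribe it.

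Tfam went against the labels. It stood at 63.1, 63.5 and 61.4 normalized CPM (counts scaled to the depth of each library) in the KspCre Tfam f/f-labelled libraries, against 30.3, 33.6 and 23.2 in those labelled Tfam f/f, so every library labelled as carrying Cre held more of the targeted transcript than any without (2.15-fold higher, log2 fold change 1.11, SE 0.14, adjusted p = 0.00107). The names of the deposited count tables also run against the labels, with the letters WT on those of the KspCre Tfam f/f-labelled libraries. Each direction below is therefore between labels and not between known genotypes. Total gene counts were 30348281 to 48899266 in the KspCre Tfam f/f-labelled libraries and 19024208 to 34821537 in those labelled Tfam f/f. The tissue label was checked with 8 proximal tubule markers, whose summed level was 18279 to 19890 CPM in the KspCre Tfam f/f-labelled libraries and 2502 to 9898 CPM in those labelled Tfam f/f. Kidney transcripts were thus present in all libraries, and the summed ranges of the 2 labels did not overlap.

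Macrophages of the kidney live between the tubules, where they take up debris, present antigen and exchange signals with the epithelium. Their survival depends on the receptor CSF1R, which binds CSF1 and interleukin 34, and their identity on the transcription factor PU.1. Many of their surface receptors have no signalling tail of their own and pass signals through the adaptors TYROBP and FCER1G, whose tyrosine motifs recruit the kinase SYK. Macrophages that have taken up much lipid or cell debris are marked by TREM2, GPNMB and galectin 3.

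The myeloid genes were lower in the KspCre Tfam f/f-labelled libraries, with few exceptions. Of 33 members that passed the filter on low counts, 28 were lower and 1, Fcgr2b, was higher by the edgeR quasi-likelihood test at an adjusted p below 0.05, and Csf1, Csf1r, Ptprc and Fcgr4 did not pass. Over all 17308 genes tested, 24.9% were lower, 21.3% higher and 46.2% changed in either direction by the same rule. The median log2 fold change was -1.98 over the tested members and -0.03 over all tested genes. A fall of 2-fold or more was called for 28 members, against 13.2% of all tested genes, and one of 4-fold or more for 16, against 4.69%. All 3 KspCre Tfam f/f-labelled libraries lay below all 3 labelled Tfam f/f for 28 members, against 32.1% of all tested genes, and above them for 1, against 29.8%. Trem2, Gpnmb and Msr1 passed the filter, which asks for about 0.307 CPM, only through the Tfam f/f-labelled libraries, and had to differ to be tested. All of them are among the 16 called lower by 4-fold or more. Among the 30 members that passed the filter in both groups, 25 were lower, 1 was higher and 4 did not pass. Lyz1 did not pass the filter. The whole-table counts changed with a library left out, to similar numbers whichever KspCre Tfam f/f-labelled library it was. The 4310 genes called lower became 2914, 2822 and 2873 without KspCre Tfam f/f-labelled replicates 1, 2 and 3. The 3690 called higher became 2321, 2276 and 2299 without those libraries. Without Tfam f/f-labelled replicate 2 the counts rose to 4942 lower and 4652 higher. In whole tissue, fewer cells of a type and less RNA per cell cannot be told apart.

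**Figure D1:**
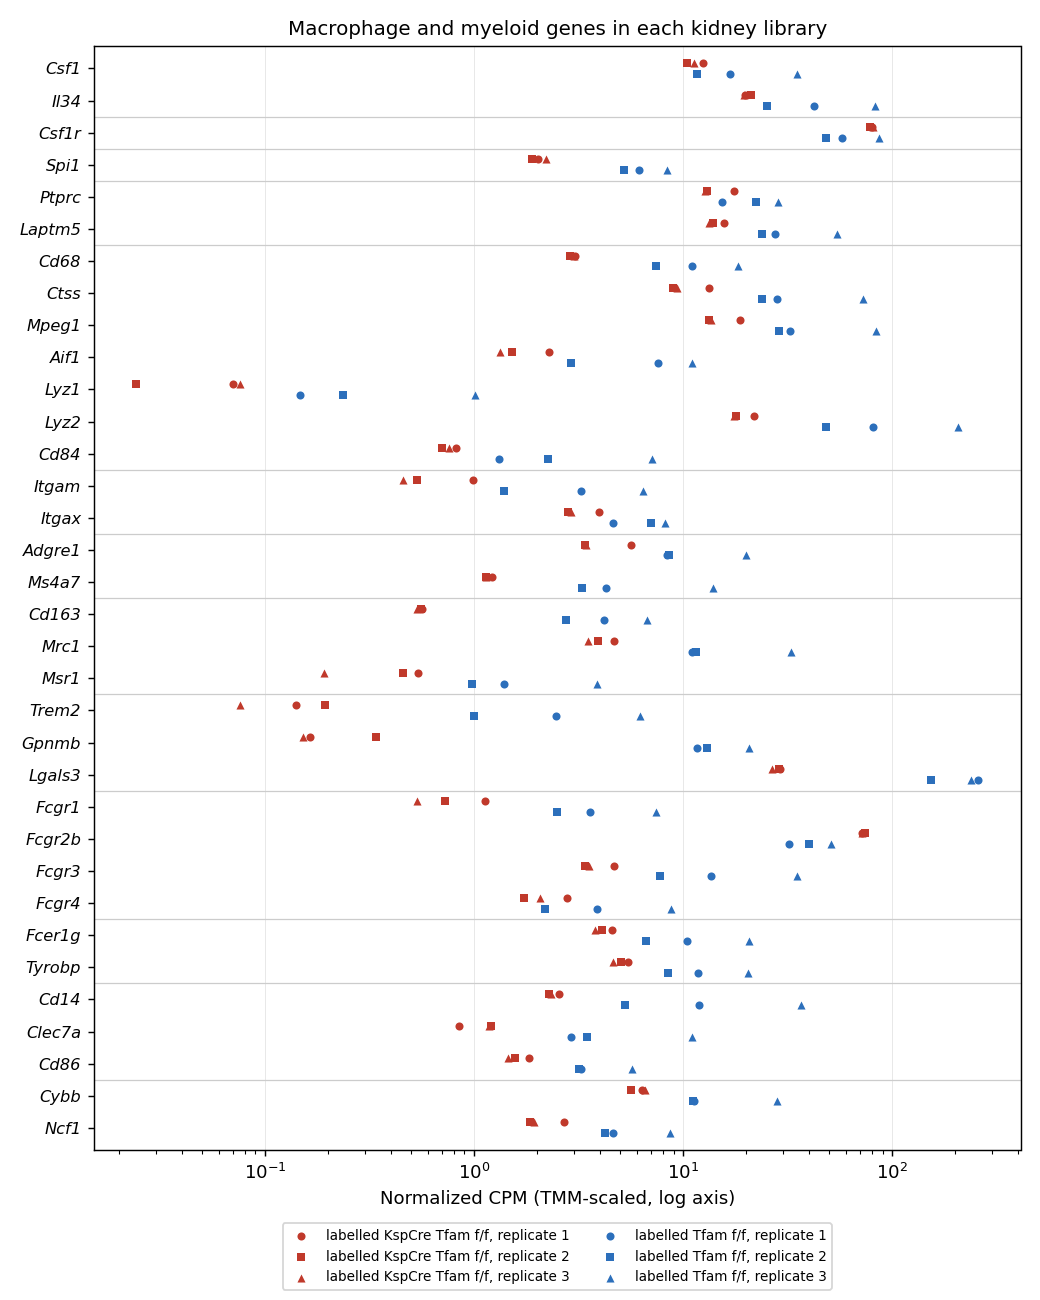
Normalized CPM (log axis) of the 34 members in each library, ordered by role, with KspCre Tfam f/f-labelled libraries in red and those labelled Tfam f/f in blue, and a marker shape for each replicate number. Blue points lie to the right of red ones for all but a few genes, Fcgr2b is reversed, Csf1r overlaps, and the blue triangle (replicate 3) is usually farthest right.

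Of the ligands and the receptor of the CSF1R axis, Il34 was lower in the KspCre Tfam f/f-labelled libraries, and Csf1 and Csf1r did not pass. Il34, which encodes interleukin 34 and is made by tubule epithelium, had 19.7, 21.1 and 19.6 CPM in the KspCre Tfam f/f-labelled libraries, against 42.1, 25.2 and 82.6 CPM in those labelled Tfam f/f. It was 2.47-fold lower (log2 fold change -1.31, SE 0.38, adjusted p = 0.0266), with the closest pair of libraries of the 2 labels apart by less than the spread among those labelled Tfam f/f. Csf1, the other ligand, had 12.4, 10.5 and 11.3 CPM in the first group and 16.8, 11.7 and 35.3 CPM in the second, where replicate 2 lay within the range of the KspCre Tfam f/f-labelled libraries (log2 fold change -0.89, SE 0.37, adjusted p = 0.0851). Csf1r, the receptor itself, had 79.9, 77.9 and 81.4 CPM in the KspCre Tfam f/f-labelled libraries and 57.4, 48.4 and 86.2 CPM in those labelled Tfam f/f, so the groups overlapped (log2 fold change 0.32, SE 0.20, adjusted p = 0.214). Without Tfam f/f-labelled replicate 3, Csf1r was called higher in the KspCre Tfam f/f-labelled libraries (log2 fold change 0.59, adjusted p = 0.00266, range 0.00266 to 0.653 over alternatives), and scaled by library totals alone its sign turned (log2 fold change -0.13). The call of Il34 was lost with no low-count filter, with limma voom and without KspCre Tfam f/f-labelled replicate 1, 2 or 3 or Tfam f/f-labelled replicate 1 (adjusted p = 0.0824, 0.0762, 0.0827 and 0.0537 for the 4 libraries, range 0.00171 to 0.135 over alternatives). Csf1 was called lower without Tfam f/f-labelled replicate 2 (adjusted p = 0.0149, range 0.0149 to 0.241), with DESeq2 and with scaling by library totals alone. In GENCODE M21, 15.12% of the exon bases of Csf1r overlap Hmgxb3 on the other strand. Hmgxb3 had 41.6, 47.9 and 49.8 CPM in the KspCre Tfam f/f-labelled libraries and 37.5, 39.1 and 32.4 CPM in those labelled Tfam f/f, and its part in the Csf1r counts was not tested.

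Spi1, which encodes PU.1, was lower in the KspCre Tfam f/f-labelled libraries. Its level was 2.02, 1.88 and 2.21 CPM in the KspCre Tfam f/f-labelled libraries, against 6.13, 5.24 and 8.39 CPM in those labelled Tfam f/f (3.23-fold lower, log2 fold change -1.69, SE 0.23, adjusted p = 0.00145). The groups did not overlap. The lowest library labelled Tfam f/f was above the highest of the other label by more than the spread within the KspCre Tfam f/f-labelled libraries. That gap was slightly less than the spread among the libraries labelled Tfam f/f. The call held in all 14 alternatives tried.

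PU.1 binds purine-rich sites around the core GAGGAA. RefSeq promoters (build GRCm38.p6, 300 bases around each annotated start, most of them before it) were found for 26 of the 34 members, with 30 promoters in all. The core or its reverse complement TTCCTC stood in 17 of these 30 promoters (56.7%), against 28.3% of all 32851 promoters. By gene, 15 of the 26 members had it. Clec7a and Fcgr3 each have 2 overlapping windows that hold the same core. The longer GAGGAAGT, which contains the core, stood in 2 of the 30 promoters (6.67%), against 3.2% of all. The sequences of 6 members are shown 5′ to 3′ on the gene's own strand, with each core on either strand in capitals: Trem2 and Gpnmb because they differed most between the labels, Itgam and Mrc1 because they hold 3 cores each, Ctss because it holds the longer site, and Fcgr2b because it moved the other way.
Trem2, chr17:48346151-48346450, plus strand: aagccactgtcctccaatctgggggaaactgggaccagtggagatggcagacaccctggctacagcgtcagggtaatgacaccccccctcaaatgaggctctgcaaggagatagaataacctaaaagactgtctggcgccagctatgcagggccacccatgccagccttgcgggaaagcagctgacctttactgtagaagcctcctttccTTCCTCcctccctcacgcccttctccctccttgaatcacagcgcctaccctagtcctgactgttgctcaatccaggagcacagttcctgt
Gpnmb, chr6:49036268-49036567, plus strand: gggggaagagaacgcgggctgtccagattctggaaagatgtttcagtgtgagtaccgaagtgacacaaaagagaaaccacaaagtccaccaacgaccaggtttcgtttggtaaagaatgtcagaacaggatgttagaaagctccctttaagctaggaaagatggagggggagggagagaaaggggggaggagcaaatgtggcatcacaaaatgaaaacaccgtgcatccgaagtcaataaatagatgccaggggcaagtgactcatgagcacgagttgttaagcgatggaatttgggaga
Itgam, chr7:128062390-128062689, plus strand: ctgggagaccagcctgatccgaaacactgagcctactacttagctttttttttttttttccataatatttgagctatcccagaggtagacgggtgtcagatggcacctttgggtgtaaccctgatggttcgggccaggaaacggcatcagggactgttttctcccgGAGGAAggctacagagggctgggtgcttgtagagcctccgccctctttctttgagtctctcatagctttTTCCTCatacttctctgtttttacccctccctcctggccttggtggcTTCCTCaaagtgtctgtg
Mrc1, chr2:14229164-14229463, plus strand: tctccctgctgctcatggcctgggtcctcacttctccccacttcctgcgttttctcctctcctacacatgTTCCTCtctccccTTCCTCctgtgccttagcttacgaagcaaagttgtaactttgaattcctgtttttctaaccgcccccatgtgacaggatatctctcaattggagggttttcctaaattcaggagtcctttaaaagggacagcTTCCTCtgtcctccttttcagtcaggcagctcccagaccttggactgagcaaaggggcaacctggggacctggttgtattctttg
Ctss, chr3:95526536-95526835, plus strand: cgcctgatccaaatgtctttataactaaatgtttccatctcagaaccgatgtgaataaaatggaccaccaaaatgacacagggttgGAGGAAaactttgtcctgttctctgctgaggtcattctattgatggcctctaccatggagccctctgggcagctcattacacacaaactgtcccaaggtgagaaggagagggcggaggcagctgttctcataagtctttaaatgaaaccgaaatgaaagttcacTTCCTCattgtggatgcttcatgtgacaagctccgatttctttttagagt
Fcgr2b, chr1:170976022-170976321, minus strand: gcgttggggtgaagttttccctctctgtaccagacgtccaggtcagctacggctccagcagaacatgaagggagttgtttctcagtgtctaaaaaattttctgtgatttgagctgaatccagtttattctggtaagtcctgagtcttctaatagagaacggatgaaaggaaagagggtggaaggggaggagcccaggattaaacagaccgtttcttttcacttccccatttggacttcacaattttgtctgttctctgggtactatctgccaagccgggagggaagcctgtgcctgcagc
Trem2 thus has 1 core, while the windows of Gpnmb and Fcgr2b have none. These are matches of letters only, and absence from this window says nothing of sites elsewhere.

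All 6 tested general myeloid genes were lower in the KspCre Tfam f/f-labelled libraries, and of the pan-leukocyte genes Laptm5 was lower while Ptprc did not pass. Ptprc, which encodes CD45 and is made by all leukocytes, had 17.4, 12.97 and 12.7 CPM there and 15.4, 22.3 and 28.4 CPM in the Tfam f/f-labelled libraries. Its groups overlapped and it did not pass (log2 fold change -0.61, SE 0.23, adjusted p = 0.0612). However, it was called lower without Tfam f/f-labelled replicate 1 (adjusted p = 0.0242, range 0.00864 to 0.181 over alternatives). The same call was made with DESeq2, after thinning all libraries to the depth of the shallowest, and with scaling by library totals alone. Laptm5, a lysosomal membrane protein of blood cells, had 15.8, 13.9 and 13.3 CPM, against 27.5, 23.7 and 54.4 CPM (2.45-fold lower, adjusted p = 0.0116). Its groups were apart, and the spread was mainly that of Tfam f/f-labelled replicate 3.

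Cd68, a lysosomal glycoprotein used to stain macrophages, served as a yardstick with 3.05, 2.87 and 3.01 CPM in the KspCre Tfam f/f-labelled libraries, which were nearly equal, against 11.1, 7.40 and 18.3 CPM in those labelled Tfam f/f (4.09-fold lower, log2 fold change -2.03, SE 0.32, adjusted p = 0.00258). Lyz2, the lysozyme of mouse macrophages, had 21.7, 17.97 and 17.5 CPM, against 80.8, 48.1 and 208 CPM (5.87-fold lower, SE 0.50 in log2, adjusted p = 0.00640), and Tfam f/f-labelled replicate 3 stood far above the other libraries. Lyz1, the lysozyme of Paneth cells, had 3, 1 and 2 counts in the KspCre Tfam f/f-labelled libraries and 4, 9 and 24 counts in those labelled Tfam f/f, under the low-count filter. With no such filter it was called lower (log2 fold change -2.92, adjusted p = 0.0167). Of all words of 100 bases in Lyz2 transcripts, 1.97% also stand in Lyz1.

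Ctss, the lysosomal protease cathepsin S, had 13.3, 8.96 and 9.31 CPM, against 28.2, 23.9 and 72.7 CPM (3.93-fold lower, adjusted p = 0.00921). Mpeg1, a pore-forming protein of phagocytes, had 18.8, 13.4 and 13.7 CPM, against 32.6, 28.8 and 83.6 CPM (3.15-fold lower, adjusted p = 0.0145). For both, Tfam f/f-labelled replicates 1 and 2 were close to each other and replicate 3 was far above them. Aif1, the actin-bundling protein IBA1, had 2.28, 1.52 and 1.34 CPM, against 7.56, 2.90 and 11.1 CPM (4.12-fold lower, adjusted p = 0.0116). Cd84, a receptor of the SLAM family on leukocytes, had 0.822, 0.701 and 0.763 CPM, against 1.32, 2.27 and 7.09 CPM (4.61-fold lower, adjusted p = 0.0207). Aif1 had its low library in replicate 2 of the Tfam f/f-labelled group and Cd84 in replicate 1, so those libraries do not share 1 order over all genes. Without Tfam f/f-labelled replicate 3, the difference was 3.38-fold for Lyz2, 2.47-fold for Ctss, 2.01-fold for Mpeg1 and 2.38-fold for Cd84, all still called lower. Calls were lost for Lyz2, Ctss and Mpeg1 with no low-count filter, for Cd84 with limma voom and without any library labelled KspCre Tfam f/f (adjusted p = 0.0646, 0.0744 and 0.0661 without replicates 1, 2 and 3, range 0.000502 to 0.0744 over alternatives), and for Mpeg1 without replicate 2 or 3 of that label (adjusted p = 0.0593 and 0.0567, range 0.000118 to 0.0935).

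The integrin alpha chains of myeloid cells were both lower in the KspCre Tfam f/f-labelled libraries. Itgam, the CD11b chain of monocytes, macrophages and neutrophils, had 0.986, 0.531 and 0.458 CPM there, against 3.23, 1.40 and 6.46 CPM in the Tfam f/f-labelled libraries (5.42-fold lower, SE 0.58 in log2, adjusted p = 0.0126). Itgax, the CD11c chain of dendritic cells and of many kidney macrophages, had 3.97, 2.80 and 2.90 CPM, against 4.63, 7.06 and 8.18 CPM (2.05-fold lower, SE 0.26 in log2, adjusted p = 0.0142). In Tfam f/f-labelled replicate 2, Itgam was lower than in its 2 companions, while Itgax was not. Itgam was 3.38-fold lower without Tfam f/f-labelled replicate 3, both calls were lost without KspCre Tfam f/f-labelled replicate 2 (adjusted p = 0.0540 for Itgam, range 6.71e-05 to 0.0540 over alternatives, and 0.0625 for Itgax, range 0.00116 to 0.0625), and that of Itgax also without replicate 3 (adjusted p = 0.0595). In GENCODE M21 another gene, Gm49368, covers 68.67% of the exon bases of Itgam on the same strand, so reads could be shared where an annotation holds both.

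Genes of resident macrophages were lower in the KspCre Tfam f/f-labelled libraries. Adgre1, which encodes the F4/80 antigen of mouse macrophages, had 5.64, 3.38 and 3.43 CPM there and 8.37, 8.59 and 19.9 CPM in the Tfam f/f-labelled libraries (2.93-fold lower, SE 0.39 in log2, adjusted p = 0.0150). Ms4a7, a membrane protein of macrophages, had 1.22, 1.14 and 1.14 CPM, against 4.30, 3.27 and 13.9 CPM (6.07-fold lower, SE 0.56 in log2, adjusted p = 0.00873), and 3.22-fold lower without Tfam f/f-labelled replicate 3. In the KspCre Tfam f/f-labelled libraries the 3 values of Ms4a7 were nearly equal, whereas Adgre1 was higher in replicate 1 than in the other two. The call of Adgre1 was lost without KspCre Tfam f/f-labelled replicate 2 or 3 (adjusted p = 0.0613 and 0.0583, range 0.000271 to 0.0613 over alternatives).

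Among other genes of resident macrophages, in a list of 15, 12 were tested, of which 7 were lower, 2 were higher and 3 did not pass, beside 24.9% lower and 21.3% higher over all tested genes. The 7 lower ones were C1qa, C1qb and C1qc, which encode the chains of complement C1q, together with Cd72, Cx3cr1, Lst1 and Sirpa. Cx3cr1, the fractalkine receptor of monocytes and macrophages, had 3.99, 3.60 and 3.51 CPM in the KspCre Tfam f/f-labelled libraries, against 14.8, 11.1 and 31.9 CPM in those labelled Tfam f/f (5.17-fold lower, adjusted p = 0.00310). Sirpa, the inhibitory receptor for CD47, was 1.63-fold lower (adjusted p = 0.00581). The 2 higher ones were Folr2, a folate receptor of some resident macrophages, and Maf, a transcription factor that tubule cells also make, and 1 was called higher without KspCre Tfam f/f-labelled replicate 2 or 3 or Tfam f/f-labelled replicate 1. Timd4 and Vsig4, receptors of other resident macrophage populations, had 0 counts in the KspCre Tfam f/f-labelled libraries and 3, 4 and 3 counts, and 1 count each, in those labelled Tfam f/f.

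Scavenger receptors were lower in the KspCre Tfam f/f-labelled libraries, all 3 by more than 4-fold. Cd163, the receptor for haemoglobin bound to haptoglobin, had 0.564, 0.556 and 0.534 CPM there, against 4.19, 2.74 and 6.71 CPM in the Tfam f/f-labelled libraries (8.13-fold lower, log2 fold change -3.02, SE 0.37, adjusted p = 0.00104). The KspCre Tfam f/f-labelled libraries held 24, 23 and 14 counts of Cd163, and their CPM were nearly equal. Mrc1, the mannose receptor CD206, had 4.65, 3.91 and 3.51 CPM, against 10.98, 11.6 and 32.7 CPM (4.54-fold lower, SE 0.44 in log2, adjusted p = 0.00706). Msr1, the class A scavenger receptor for modified lipoproteins, had 0.540, 0.459 and 0.191 CPM, against 1.40, 0.975 and 3.86 CPM (4.92-fold lower, SE 0.60 in log2, adjusted p = 0.0170). In Mrc1 and Msr1, Tfam f/f-labelled replicate 3 stood apart, and without it they were 2.79-fold and 2.83-fold lower, both still called. The call of Msr1 was lost without KspCre Tfam f/f-labelled replicate 2 or 3 (adjusted p = 0.0563 and 0.0578, range 0.000561 to 0.0578 over alternatives), while those of Cd163 and Mrc1 held in all 14. Msr1 passed the low-count filter only through the Tfam f/f-labelled libraries, so it had to differ to be tested.

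All 3 lipid-associated genes were lower, and Gpnmb and Trem2 had the largest differences of the tested members. Gpnmb and Trem2 passed the low-count filter only through the Tfam f/f-labelled libraries, so they had to differ to be tested. Gpnmb, a transmembrane glycoprotein of lysosome-rich macrophages, had 0.164, 0.338 and 0.153 CPM in the KspCre Tfam f/f-labelled libraries, from 7, 14 and 4 counts, against 11.7, 13.01 and 20.6 CPM in those labelled Tfam f/f, from 318, 494 and 490 counts. It was 65.8-fold lower (log2 fold change -6.04, SE 0.37, adjusted p = 7.59e-05). Gpnmb thus had few counts in every library labelled KspCre Tfam f/f, and was within a 1.76-fold span across those labelled Tfam f/f, below the median span of the members. Trem2, the lipid-sensing receptor that signals through TYROBP, had 0.141, 0.193 and 0.0763 CPM in the first group, from 6, 8 and 2 counts, against 2.46, 1.001 and 6.25 CPM in the second, from 67, 38 and 149 counts (21.7-fold lower, log2 fold change -4.44, SE 0.78, adjusted p = 0.00396). Its Tfam f/f-labelled libraries spanned 6.25-fold, and without replicate 3 of that label it was 11.6-fold lower. Lgals3, which encodes galectin 3, had 29.1, 28.9 and 26.6 CPM, against 259, 154 and 238 CPM (7.67-fold lower, log2 fold change -2.94, SE 0.20, adjusted p = 0.000117). Here Tfam f/f-labelled replicate 1, not replicate 3, was the highest library, the only tested member for which replicate 3 was not. Epithelial cells also make galectin 3, and 8 of 8 tubular injury markers were lower in the KspCre Tfam f/f-labelled libraries, beside 24.9% of all tested genes. The summed level of these markers was 339 to 389 CPM in the KspCre Tfam f/f-labelled libraries and 1574 to 5066 CPM in those labelled Tfam f/f. Their part in the Lgals3 result was not tested. The calls of all 3 genes held in all 14 alternatives.

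**Figure D2:**
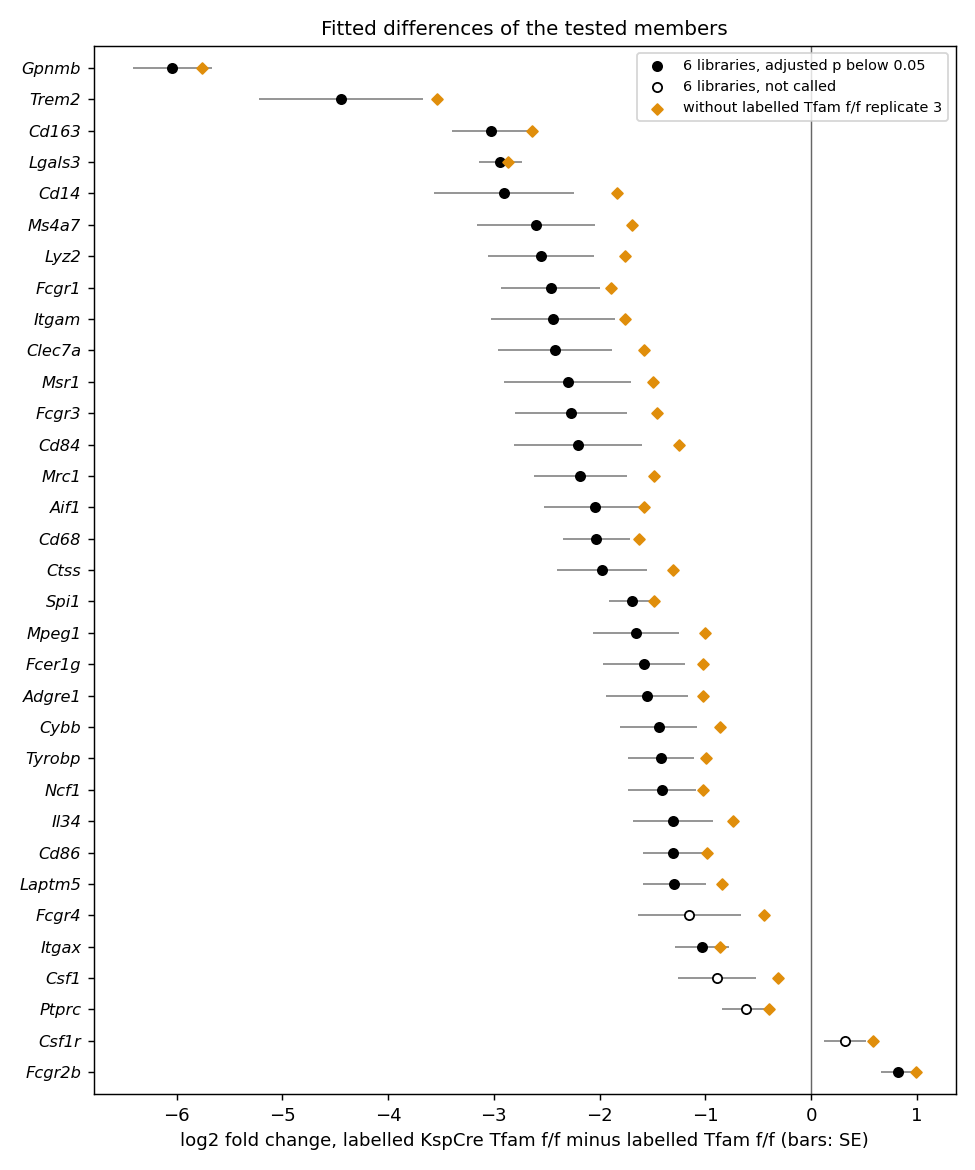
Fitted log2 fold change, labelled KspCre Tfam f/f minus labelled Tfam f/f, of the 33 tested members with its standard error (bars); filled points passed at an adjusted p below 0.05, and orange diamonds give the value without Tfam f/f-labelled replicate 3. Gpnmb (-6.04) and Trem2 (-4.44) lie farthest left, Fcgr2b (0.82) and Csf1r (0.32) lie to the right of 0, and most diamonds lie nearer to 0 than the points.

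Other genes of lipid-laden macrophages did not follow these as a group. Of 14 tested genes in a list of 15, 5 were lower in the KspCre Tfam f/f-labelled libraries (Apoe, Cd9, Ctsd, Spp1 and Syngr1), 3 were higher (Cd36, Lipa and Lpl) and 6 did not pass. Apoe, the lipid carrier apolipoprotein E, had 112, 113 and 101 CPM in the KspCre Tfam f/f-labelled libraries, against 722, 441 and 798 CPM in those labelled Tfam f/f (6.01-fold lower, adjusted p = 0.000347). Ctsd, the lysosomal protease cathepsin D, was 4.19-fold lower (adjusted p = 0.00127). In the other direction, Lpl, which encodes lipoprotein lipase, had 1496, 1117 and 1404 CPM, against 244, 375 and 161 CPM, and Cd36, a fatty acid transporter, had 652, 609.7 and 739 CPM, against 91.3, 149 and 40.9 CPM. Tubule, endothelial and fat cells make several of these transcripts, and which cells they came from was not tested.

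Of the 4 Fc receptors for IgG, the activating receptors Fcgr1 and Fcgr3 were lower in the KspCre Tfam f/f-labelled libraries, Fcgr4 did not pass, and the inhibitory receptor Fcgr2b was higher. Fcgr1, the high-affinity receptor, had 1.13, 0.725 and 0.534 CPM there, against 3.60, 2.50 and 7.43 CPM in the Tfam f/f-labelled libraries (5.50-fold lower, SE 0.47 in log2, adjusted p = 0.00531). Fcgr3 had 4.65, 3.38 and 3.55 CPM, against 13.6, 7.72 and 35.1 CPM (4.83-fold lower, SE 0.53 in log2, adjusted p = 0.0116). Fcgr4 had 2.77, 1.74 and 2.06 CPM, against 3.86, 2.19 and 8.73 CPM, with overlapping groups (log2 fold change -1.15, SE 0.48, adjusted p = 0.0866). Fcgr2b stood at 71.4, 73.9 and 71.7 CPM in the KspCre Tfam f/f-labelled libraries, which were nearly equal, and at 32.3, 39.99 and 50.7 CPM in those labelled Tfam f/f. It was 1.76-fold higher (log2 fold change 0.82, SE 0.16, adjusted p = 0.00523), and the groups did not overlap. Within the Tfam f/f-labelled libraries, Fcgr2b was highest in replicate 3, as were the activating receptors. The call of Fcgr2b was lost when libraries were scaled by their totals alone (adjusted p = 0.107, range 3.61e-05 to 0.107 over alternatives), which moved the median log2 fold change of all genes to -0.46 and that of Fcgr2b to 0.38, still above that median.

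Some B cells and endothelial cells also make Fcgr2b. Among B cell markers 3 of 5 tested genes were lower in the KspCre Tfam f/f-labelled libraries, beside 24.9% of all tested genes. The summed level of these markers was 9.09 to 10.7 CPM in the KspCre Tfam f/f-labelled libraries and 16.6 to 23.3 CPM in those labelled Tfam f/f. None of the 8 listed was at 0 in every library. Among endothelial markers 1 of 8, Ehd3, was higher, beside 21.3% of all tested genes, and 7 were higher without Tfam f/f-labelled replicate 2. Their summed level was 357 to 376 CPM in the KspCre Tfam f/f-labelled libraries and 210 to 402 CPM in those labelled Tfam f/f, and none was at 0. Their part in the Fcgr2b result was not tested. Fcgr3 was 2.74-fold lower without Tfam f/f-labelled replicate 3, and its call was lost with no low-count filter. Fcgr4, still not called, differed by 1.36-fold without that library. It was called lower without Tfam f/f-labelled replicate 2 (adjusted p = 0.0166, range 0.0166 to 0.286), with DESeq2 and with scaling by library totals alone. Fcgr3 and Fcgr2b share 44 words of 100 bases, 2.54% of those in Fcgr3 transcripts.

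Both signalling adaptors were lower in the KspCre Tfam f/f-labelled libraries. Fcer1g, the Fc receptor gamma chain that Fcgr1, Fcgr3 and Fcgr4 need at the surface, had 4.58, 4.11 and 3.78 CPM there, against 10.4, 6.64 and 20.6 CPM in the Tfam f/f-labelled libraries (2.998-fold lower, SE 0.39 in log2, adjusted p = 0.0138). Tyrobp, the adaptor DAP12 that TREM2 needs, had 5.45, 5.05 and 4.62 CPM, against 11.8, 8.43 and 20.5 CPM (2.68-fold lower, SE 0.31 in log2, adjusted p = 0.00880). Both were lowest in replicate 2 and highest in replicate 3 of the Tfam f/f-labelled libraries. The call of Fcer1g was lost without KspCre Tfam f/f-labelled replicate 2 or 3 (adjusted p = 0.0529 and 0.0540, range 0.000185 to 0.0540 over alternatives). Of 12 kinases and effectors that act below these adaptors, 9 were lower, beside 24.9% of all tested genes, and Lyn, Plcg2 and Ptpn6 did not pass. Syk, the kinase that binds the phosphorylated adaptors, had 3.12, 3.31 and 2.71 CPM in the KspCre Tfam f/f-labelled libraries, against 6.13, 5.37 and 9.32 CPM in those labelled Tfam f/f (2.26-fold lower, adjusted p = 0.00692), and Lcp2, the scaffold SLP-76, was 3.51-fold lower (adjusted p = 0.00883). Without KspCre Tfam f/f-labelled replicate 2 or 3, 5 of these genes were lower.

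Pattern recognition and costimulation genes were lower in the KspCre Tfam f/f-labelled libraries. Cd14, the co-receptor for bacterial lipopolysaccharide, had 2.54, 2.30 and 2.33 CPM there, against 11.9, 5.27 and 36.7 CPM in the Tfam f/f-labelled libraries (7.47-fold lower, SE 0.66 in log2, adjusted p = 0.0110). The Tfam f/f-labelled libraries spanned 6.97-fold for Cd14, the widest of the tested members. Clec7a, the beta-glucan receptor dectin 1, had 0.845, 1.21 and 1.18 CPM, against 2.90, 3.48 and 11.04 CPM (5.35-fold lower, adjusted p = 0.00988). Cd86, a costimulatory ligand for T cells, had 1.83, 1.57 and 1.45 CPM, against 3.23, 3.19 and 5.67 CPM (2.47-fold lower, adjusted p = 0.00873). Tfam f/f-labelled replicate 3 was the highest library for all 3 genes. Without it Cd14 was 3.58-fold and Clec7a 2.99-fold lower, Clec7a was 8.19-fold lower after thinning all libraries to the depth of the shallowest, and the call of Cd14 was lost with limma voom and with no low-count filter.

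The NADPH oxidase of phagocytes makes superoxide. Its catalytic subunit Cybb had 6.34, 5.60 and 6.56 CPM in the KspCre Tfam f/f-labelled libraries, against 11.3, 11.1 and 28.1 CPM in those labelled Tfam f/f (2.72-fold lower, SE 0.36 in log2, adjusted p = 0.0157). Its cytosolic organizer Ncf1 had 2.70, 1.86 and 1.95 CPM, against 4.63, 4.21 and 8.65 CPM (2.66-fold lower, SE 0.32 in log2, adjusted p = 0.0103). For both, Tfam f/f-labelled replicates 1 and 2 were close and replicate 3 was above them. Among 5 tested other subunits and GTPases, Ncf4 and Rac2 were lower and Cyba was higher. Over all tested genes 24.9% were lower and 21.3% higher. Cyba, the membrane partner of Cybb that other NADPH oxidases of the tubule also use, had 241, 270.2 and 252 CPM in the KspCre Tfam f/f-labelled libraries, against 142, 139 and 101 CPM in those labelled Tfam f/f (1.997-fold higher, adjusted p = 0.00259). The call of Cybb was lost with no low-count filter and without KspCre Tfam f/f-labelled replicate 1, 2 or 3 (adjusted p = 0.0530, 0.0622 and 0.0505, range 0.000361 to 0.0622 over alternatives). Without KspCre Tfam f/f-labelled replicate 2, Rac2 kept its call and was the 1 lower gene among the other subunits and GTPases. For Ncf1, 11.1% of exon bases overlap Gtf2ird2 on the other strand in GENCODE M21.

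Whether members differed from each other in the size of their difference was examined with the log2 ratio of normalized CPM + 0.1 of 14 pairs of members within each library. The ratio of Gpnmb to Cd68 was -3.58, -2.76 and -3.62 in the KspCre Tfam f/f-labelled libraries, and 0.08, 0.81 and 0.17 in those labelled Tfam f/f, a difference in log2 of -3.67, or -2.03 with a pseudocount of 1 in place of 0.1. These are ratios of CPM with no correction for length, so they compare the 2 labels and not the levels of the 2 genes. The differences in log2 were -1.59 for Trem2 against Cd68, -2.18 for Trem2 against Tyrobp, -0.995 for Lgals3 against Cd68 and -0.84 for Cd163 against Cd68, and in these pairs too the groups did not overlap. Of these, the values of genes below 1 CPM rest on the pseudocount: with a pseudocount of 1 they were -0.05 for Trem2 against Cd68 and -0.12 for Cd163 against Cd68, both with overlapping groups, and -0.51 for Trem2 against Tyrobp. That of Lgals3 against Cd68 was then -1.21. At a pseudocount of 0.1 the Cd163 ratio varied little within groups, with means of -2.24 ± 0.06 in the KspCre Tfam f/f-labelled libraries and -1.40 ± 0.03 in those labelled Tfam f/f (SD, n = 3 each).

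Csf1r against Cd68 moved the other way, with log2 ratios of 4.67, 4.71 and 4.71 in the KspCre Tfam f/f-labelled libraries, and 2.37, 2.69 and 2.23 in those labelled Tfam f/f, a difference of 2.27. Ptprc against Cd68 differed by 1.32 and Fcgr2b against Fcgr3 by 2.83 in the same direction, and Csf1 against Il34 by 0.40, all without overlap. Adgre1, Mrc1 and Msr1 against Cd68, Lyz1 against Lyz2 and Itgax against Itgam overlapped between groups, although with a pseudocount of 1 Msr1 against Cd68 (0.62) and Lyz1 against Lyz2 (1.81) did not. For the 9 pairs without overlap the two-sided exact permutation p was 0.1, the smallest that 3 against 3 libraries allow, and 0.156 after Benjamini-Hochberg adjustment over the 14 pairs, so none can pass 0.05 in this design.

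**Figure D3:**
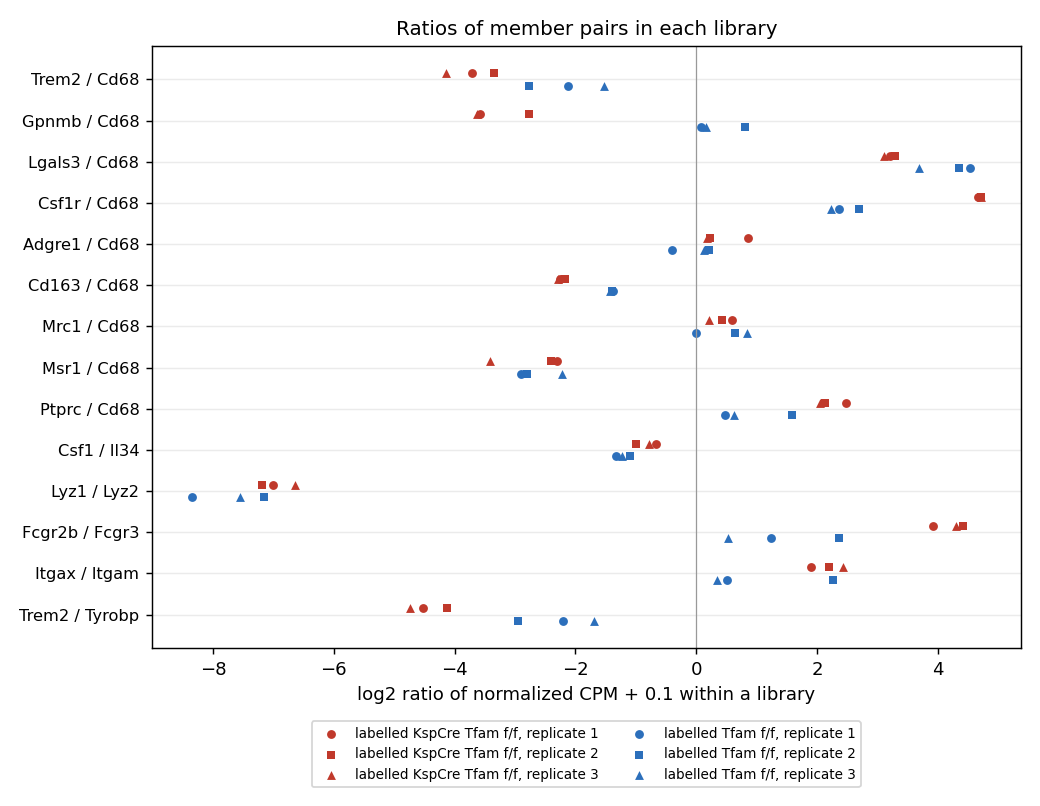
Log2 ratio of normalized CPM + 0.1 for 14 pairs of members within each library, with KspCre Tfam f/f-labelled libraries in red and those labelled Tfam f/f in blue. Gpnmb and Trem2 are lower against Cd68 in the red libraries (for Trem2 not with a pseudocount of 1), Csf1r, Ptprc and Fcgr2b (against Fcgr3) are higher, and the Mrc1 and Msr1 ratios to Cd68 overlap.

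The members varied more among the Tfam f/f-labelled libraries than among those labelled KspCre Tfam f/f. The ratio of the highest to the lowest library had a median of 1.26 in the KspCre Tfam f/f-labelled libraries and 2.97 in those labelled Tfam f/f, and it was larger among the Tfam f/f-labelled libraries for 32 of the 33 tested members. This wider spread was shared by most genes: over 17137 tested genes with counts in every library the medians were 1.15 and 1.41, and the ratio was larger among the Tfam f/f-labelled libraries for 81.3%. Within the Tfam f/f-labelled libraries, replicate 3 was the highest for 32 of the 33, against 37.5% of all tested genes and 64.8% of those called lower. The order from replicate 2 through replicate 1 to replicate 3 held for 24 members, against 23.6% of all tested genes and 52.1% of those called lower. Injury transcripts had the same order of libraries and proximal tubule transcripts the reverse order. Lcn2, the injury marker lipocalin 2, had 1068, 321 and 1644 CPM in the Tfam f/f-labelled libraries, and in reverse order Slc5a2, the glucose transporter SGLT2 of the proximal tubule, had 99.8, 179.8 and 49.7 CPM. Tfam f/f-labelled replicate 3 was also the shallowest library, and the part of depth or injury in the order was not tested. Without it all 33 members kept their direction and 28 were called lower, against 22.7% of 17740 genes tested, while the median log2 fold change of the members was -1.31. In the KspCre Tfam f/f-labelled libraries, replicate 1 was the highest for 25 of the 33 members, a count that was not compared with all tested genes.

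Levels were set side by side per length, as RPKM, the CPM divided by the length of the gene's exons in kilobases. In the KspCre Tfam f/f-labelled libraries the members with the highest level were Lgals3 (15.2 RPKM), Lyz2 (14.5), Csf1r (13.8), Fcgr2b (12.5) and Il34 (10.3). The ranges of Lgals3, Lyz2 and Csf1r overlapped from each to the next, while those of Fcgr2b and Il34 lay apart from their neighbours above. In the Tfam f/f-labelled libraries they were Lgals3 (117 RPKM), Lyz2 (85.2), Ctss (30.7), Il34 (25.5) and Tyrobp (20.3), and the range of each overlapped that of the next. Csf1r took rank 3 in the first group and rank 8 in the second, and Fcgr2b rank 4 and rank 13. Gpnmb took rank 33 of 34 and rank 21. At the low end, Trem2 and Gpnmb had 0.0277 and 0.0335 RPKM in the KspCre Tfam f/f-labelled libraries, whereas Msr1 and Lyz1 were the lowest in those labelled Tfam f/f, at 0.327 and 0.367 RPKM.

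**Figure D4:**
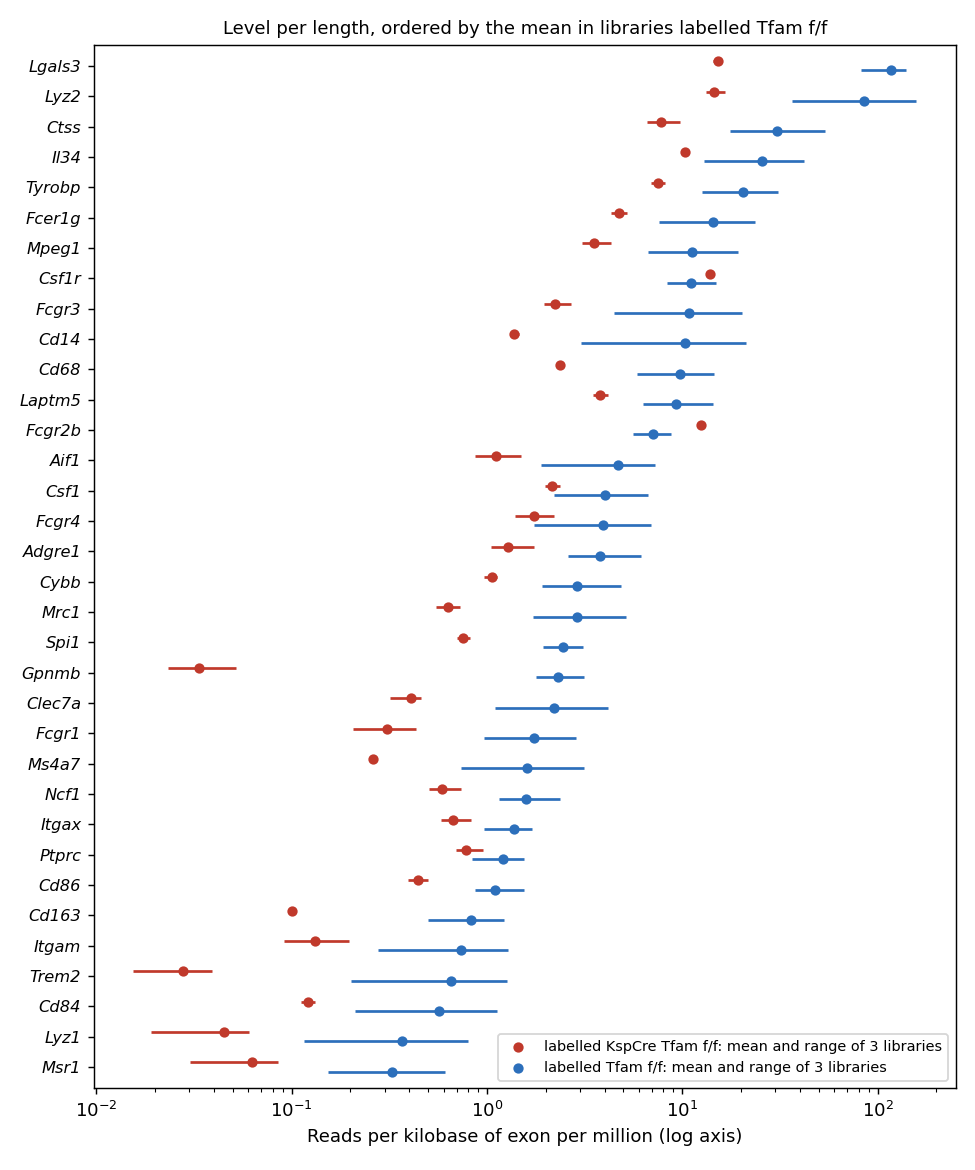
Mean level in RPKM (log axis) of the 34 members with the range over 3 libraries (lines), red for KspCre Tfam f/f-labelled libraries and blue for those labelled Tfam f/f, ordered by the blue means. The blue ranges are wide and overlap between neighbours, Csf1r and Fcgr2b are the genes whose red mean is above the blue one, and Gpnmb drops farthest out of the order.

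Genes of monocytes and of macrophage activation were detected in part. Of 12 listed monocyte genes 7 were tested, of which Ccr2, F13a1 and Plac8 were lower in the KspCre Tfam f/f-labelled libraries and Ace, which the proximal tubule also makes, was higher. Over all tested genes 24.9% were lower and 21.3% higher. F13a1, coagulation factor XIII A of monocytes and macrophages, had 0.540, 0.266 and 0.458 CPM in the KspCre Tfam f/f-labelled libraries, against 2.83, 3.13 and 3.61 CPM in those labelled Tfam f/f (7.54-fold lower, adjusted p = 0.000587). Without KspCre Tfam f/f-labelled replicate 2 or 3, 1 of the monocyte genes was called lower. Of 10 genes of alternative activation 4 were tested, and Clec10a, Ear2 and Socs2 were lower, 1 of them without KspCre Tfam f/f-labelled replicate 2 or 3. Socs2, a suppressor of cytokine signalling that many cell types make, was 4.38-fold lower (adjusted p = 0.00479). Clec10a, a lectin of macrophages and dendritic cells, was 2.59-fold lower (adjusted p = 0.0152), a call lost without KspCre Tfam f/f-labelled replicate 2 or 3 (adjusted p = 0.0540 and 0.0614, range 0.000993 to 0.0614 over alternatives). Arg1, the arginase of alternatively activated macrophages, had 0, 1 and 0 counts in the KspCre Tfam f/f-labelled libraries and 2, 4 and 13 in those labelled Tfam f/f and was not tested.

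Of 12 genes of inflammatory activation 7 were tested, and 4 did not pass. Ccl5, Il1b and Ptgs2 were lower in the KspCre Tfam f/f-labelled libraries, beside 24.9% of all tested genes. Il1b, which encodes interleukin 1 beta, had 1.32, 0.797 and 0.839 CPM there, against 6.10, 2.92 and 13.6 CPM in the Tfam f/f-labelled libraries (7.51-fold lower, adjusted p = 0.00607, and 4.49-fold without Tfam f/f-labelled replicate 3). Ptgs2, the inducible cyclooxygenase, was 3.82-fold lower (adjusted p = 0.00704). Without Tfam f/f-labelled replicate 2, 6 genes of this list were called lower.

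Transcription factors used by myeloid cells were called in shares near those of all tested genes, of which 24.9% were lower and 21.3% higher. Of 11 tested, Batf, Ikzf1, Klf4 and Runx1 were lower in the KspCre Tfam f/f-labelled libraries, Irf5, Nr1h3 and Tfec were higher, and Cebpa, Cebpb, Irf8 and Mitf did not pass. Tfec, a relative of MITF, was 3.41-fold higher (adjusted p = 0.000282), and Nr1h3, the sterol receptor LXR alpha, 2.39-fold higher (adjusted p = 0.00349). The 4 lower calls became 2, 1 and 1 without KspCre Tfam f/f-labelled replicates 1, 2 and 3. Among 8 tested genes of other colony-stimulating factors and their receptors, Csf2ra, Csf2rb, Csf2rb2 and Csf3r were lower and Kit was higher. Csf2ra, the GM-CSF receptor alpha chain, was 1.93-fold lower (adjusted p = 0.00356), and Kit, the stem cell factor receptor, 2.92-fold higher (adjusted p = 0.000367). The 4 lower calls became 2 without any 1 of the KspCre Tfam f/f-labelled libraries.

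Several members are shared with other leukocytes, whose markers were looked at beside them. Of 9 tested genes of conventional and plasmacytoid dendritic cells, 8 did not pass and Cd24a, which tubule cells also make, was 2.91-fold lower in the KspCre Tfam f/f-labelled libraries (adjusted p = 0.00446). Without Tfam f/f-labelled replicate 2, 2 genes of that list were lower. Over all tested genes 24.9% were lower with every library kept. Of 12 neutrophil markers 3 were tested and S100a9 was lower, a call lost without Tfam f/f-labelled replicate 1 or KspCre Tfam f/f-labelled replicate 2 or 3 (adjusted p = 0.0634, 0.0797 and 0.0716, range 0.000570 to 0.0834 over alternatives), with limma voom and after thinning all libraries to the depth of the shallowest. S100a9 was 6.13-fold lower with all libraries and 3.95-fold lower without Tfam f/f-labelled replicate 3. Without Tfam f/f-labelled replicate 2, where genes were filtered anew, 3 genes of the neutrophil list were called lower. The summed level of the listed neutrophil markers was 0.954 to 1.48 CPM in the KspCre Tfam f/f-labelled libraries and 1.92 to 7.47 CPM in those labelled Tfam f/f, and Mpo was at 0 in every library.

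Of 10 tested T and NK cell markers, Lck and Cd4 were lower, a share below the 24.9% of all tested genes. Without Tfam f/f-labelled replicate 2, where genes were filtered anew, 5 genes of that list were lower. The summed level of the listed T and NK cell markers was 8.24 to 10.52 CPM in the KspCre Tfam f/f-labelled libraries and 16.3 to 33.4 CPM in those labelled Tfam f/f. None of these markers was at 0 in every library. Neither of 2 tested mast cell markers passed, their summed level being 0.839 to 1.23 CPM in the KspCre Tfam f/f-labelled libraries and 1.06 to 1.71 CPM in those labelled Tfam f/f, with Fcer1a at 0 in every library. The summed level of the 34 members was 325 to 359 CPM in the KspCre Tfam f/f-labelled libraries and 548 to 1286 CPM in those labelled Tfam f/f. Neutrophils and lymphocytes also make Ptprc, Laptm5, Itgam and Ncf1, and the part of these cells in the members' results was not tested.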

How the data were processed

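Whole-kidney RNA was sequenced in 6 libraries, labelled as 2 groups of 3. The authors deposited raw read counts per gene and library; per the submitters' processing notes they used STAR 2.4.1d, HTSeq 0.11.0 and mm10. The strand setting of the counting is not given in the sources used here. The 5 summary lines at the end of each file, 16.0% to 20.4% of reads, were left out. The test on counts was that of edgeR 4.0.16, run in R 4.3.3 (TMM scaling, filterByExpr with a minimum count of 10, quasi-likelihood fit, Benjamini-Hochberg adjustment over 17308 genes, threshold 0.05). Normalized CPM use the TMM-scaled library sizes. The p-values measure the spread between libraries, which may be technical. Chi-square per degree of freedom between libraries of one label was 7.09 to 11.7 for KspCre Tfam f/f and 63.1 to 164.0 for Tfam f/f. Libraries of one label thus differed by more than counting noise, which does not exclude repeated preparations from the same kidney. Overlaps and lengths come from GENCODE M21, promoters from RefSeq. The fit was tested on simulated data.

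The members and lists were chosen with earlier results of these data known. All members are named, with Tfam and, of every other list, up to 2 called genes with the smallest p and a mean log2 CPM of at least 0. Other genes named were chosen after their values were seen. Alternatives were other scalings, filters, limma 3.58.1 voom, DESeq2 1.42.0, thinning to 19024208 counts, a replicate block and leaving out each library.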

Additional observations from a re-analysis of the deposited data

How the results depend on the processing

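Of 33 tested members, 15 kept their direction and side of the threshold in all 14 alternatives, and 1, Csf1r, changed sign in one of them. Scaling by library totals gave 1680 genes higher and 8519 lower, 0 members higher and a log2 fold change of -0.13 for Csf1r, with the median of all genes at -0.46. Leaving out each library in turn gave 2276 to 4652 genes higher, 2822 to 4942 lower, 1 to 2 members higher and 19 to 30 members lower. Members called lower numbered 21 with no low-count filter (22 with Lyz1, which only that setting tests), 25 with limma voom, 31 with DESeq2 and 29 after thinning. The log2 ratio of Msr1 to Cd68 differed between labels by 0.62 with a pseudocount of 1, by 0.34 after thinning and by -0.28 to 0.28 with a library left out, and that of Mrc1 to Cd68 by -0.32 to 0.10, and the cause was not tested. Same-numbered libraries did not deviate from their group means together (correlations -0.17, -0.07 and -0.07), which with so few libraries does not exclude a pairing. With a replicate block 3227 genes were higher, 3586 lower and 27 members lower, the call of Il34 being lost (adjusted p = 0.0558). Lyz1, Trem2, Gpnmb and Msr1 had few counts in the KspCre Tfam f/f-labelled libraries, which limits the precision of their fold changes.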
